A study of Mus musculus with 6 samples.

Results

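The 10 genes described here encode transcription factors that cells switch on within minutes of a stimulus: Fos and Fosb of the FOS family, Jun and Junb of the JUN family, Atf3, Egr1 and Egr3 of the early growth response family, and the orphan nuclear receptors Nr4a1, Nr4a2 and Nr4a3. They were chosen by name as a family of immediate early genes, and all 10 were found among the 24421 gene symbols of the read count table and in the FPKM table. The libraries are bulk RNA-seq of liver endothelial cells (ECs) from wild-type female C57BL/6J mice of 2 age groups, whose expression the study compared. The 3 young samples came from 10-week-old mice, and the 3 aged samples came from mice of 127, 131 and 136 weeks, 1 sample at each age. ECs were taken as CD31+CD45- cells by FACS after the organ had been chopped and digested with dispase and collagenases, and total RNA from 50000 cells went into each library. The labels give no transgene and no treatment for any sample. The study calls the 3 samples of a group independent, without saying whether each came from a single mouse, so the p-values measure the spread between these samples. In such sorted bulk samples, a larger part of cells that express a gene and more RNA per cell cannot be told apart.

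Immediate early genes need no new protein to be transcribed. Factors already present in the cell, such as the serum response factor SRF with its ELK partners and the cAMP- and calcium-responsive factor CREB, are activated by kinases and start their transcription. FOS and JUN proteins pair to form AP-1, which binds TGANTCA (N is any base). EGR proteins are zinc finger factors that bind GCGTGGGCG, and NR4A receptors act without a known natural ligand and bind AAAGGTCA as single molecules. Inflammatory cytokines induce these genes in ECs, and enzymatic digestion of a tissue before sorting is also well known to induce them, along with heat shock genes.

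Promoters of 8 of the 10 genes (all but Egr1 and Egr3) were matched in RefSeq, in windows of 300 bases from 250 before to 50 after the transcription start on build GRCm38.p6. The half-site TGACG, to which CREB and ATF proteins bind, stood on either strand in 7 of these 8 windows and in 20.8% of all 32817 promoter windows. The counts of half-sites differed between the families. Each of the 3 NR4A genes had 4 of them, a number reached by 0.232% of all windows, whereas Fos had 2, Fosb, Junb and Atf3 had 1 each, and Jun had none. The 250 bases upstream of 6 genes are given 5′ to 3′ on the strand of the gene, to show the 4 half-sites of each NR4A gene next to the FOS family and to Jun. Capitals mark TGACG or its reverse complement CGTCA, and also TATAAA in Fos and its reverse complement TTTATA in Nr4a2.
Nr4a1, chr15:101266596-101266845, plus strand: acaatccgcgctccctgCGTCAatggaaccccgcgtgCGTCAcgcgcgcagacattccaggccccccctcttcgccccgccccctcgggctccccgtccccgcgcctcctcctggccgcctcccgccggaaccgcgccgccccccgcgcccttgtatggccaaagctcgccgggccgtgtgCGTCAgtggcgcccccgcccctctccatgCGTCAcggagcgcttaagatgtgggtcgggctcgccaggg
Nr4a2, chr2:57124004-57124253, minus strand: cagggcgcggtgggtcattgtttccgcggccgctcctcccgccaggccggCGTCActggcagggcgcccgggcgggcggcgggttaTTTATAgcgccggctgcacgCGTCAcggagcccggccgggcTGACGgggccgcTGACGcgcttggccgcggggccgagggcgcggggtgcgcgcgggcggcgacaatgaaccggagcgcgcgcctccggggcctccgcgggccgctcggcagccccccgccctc
Nr4a3, chr4:48045055-48045304, plus strand: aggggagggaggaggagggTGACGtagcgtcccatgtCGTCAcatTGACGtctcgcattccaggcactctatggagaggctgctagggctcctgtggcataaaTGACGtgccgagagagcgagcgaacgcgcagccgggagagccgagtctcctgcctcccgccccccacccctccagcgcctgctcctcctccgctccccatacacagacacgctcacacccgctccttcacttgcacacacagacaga
Fos, chr12:85473640-85473889, plus strand: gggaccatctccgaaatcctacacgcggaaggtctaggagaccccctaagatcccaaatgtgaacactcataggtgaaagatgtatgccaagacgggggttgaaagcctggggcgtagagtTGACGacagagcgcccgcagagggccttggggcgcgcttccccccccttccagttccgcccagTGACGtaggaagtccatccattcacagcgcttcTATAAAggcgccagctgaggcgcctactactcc
Fosb, chr7:19310046-19310295, minus strand: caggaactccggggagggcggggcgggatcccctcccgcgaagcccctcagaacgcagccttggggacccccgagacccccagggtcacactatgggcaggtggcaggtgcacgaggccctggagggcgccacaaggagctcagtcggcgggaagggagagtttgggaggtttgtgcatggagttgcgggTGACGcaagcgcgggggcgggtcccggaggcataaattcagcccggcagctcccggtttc
Jun, chr4:95052223-95052472, minus strand: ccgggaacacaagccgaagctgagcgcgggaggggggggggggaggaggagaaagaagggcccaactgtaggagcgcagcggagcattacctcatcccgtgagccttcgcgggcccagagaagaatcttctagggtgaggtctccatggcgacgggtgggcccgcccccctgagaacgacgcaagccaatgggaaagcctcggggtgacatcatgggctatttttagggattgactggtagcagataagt

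Counted from the transcription start, the half-sites of Nr4a1 began at −233, −213, −69 and −40, those of Nr4a2 at −200, −144, −123 and −111, and those of Nr4a3 at −231, −213, −205 and −147. In Fos they began at −129 and −66, and TATAAA began at −33. TATAAA was found on either strand in 3 of the 8 windows (Fos, Junb and Nr4a2) and in 13.6% of all windows. The GC box GGGCGG, bound by SP1-like factors, was found in 7 of the 8 windows (all but Junb) and in 35.6% of all. The full CREB site TGACGTCA, TGANTCA, GCGTGGGCG, AAAGGTCA and the CArG box of SRF were each found in none of the 8 windows, and in 1.79%, 7.81%, 0.612%, 1.51% and 1.63% of all windows. Bases outside these windows and the promoters of Egr1 and Egr3 were not searched, so sites there are not covered. Full sites of TGACGTCA would also have counted as half-sites. The GC content of the 8 windows ranged from 58.7% to 81.7%, above the median of 52.7% over all windows, and a window rich in CG pairs is more likely to hold such letters.

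Read totals ranged from 23001556 to 31651817 counts per library, so that 3 counts corresponded to 0.0946 to 0.135 CPM (counts relative to the library total, scaled here by the TMM factors of edgeR). Libraries formed 2 kinds by their content of Lars2 and Rn45s, a pair of genes that collect ribosomal reads: these took 4.68% to 5.53% of the counts in 4 libraries, but 1.29% for young replicate 3 and 0.960% at 127 weeks. Since each kind held both ages, values within each kind are given below. The 136-week sample also stood apart. Pan-leukocyte markers (6 genes) summed to 180 CPM in it, 50.2 CPM in the 127-week sample, 24.0 CPM in the 131-week sample and 25.3 to 29.7 CPM in the young samples, although the cells were sorted as CD45-. The mRNA of CD45 itself, Ptprc, was 1.56, 1.17 and 1.70 CPM in the young samples and 7.56, 1.28 and 25.6 CPM at 127, 131 and 136 weeks. The endothelial marker Cdh5 was present in every sample, at 351 to 469 CPM in young and 241 to 461 CPM in aged samples. Of the 7 markers of liver sinusoidal ECs, 6 were lower in every aged sample than in any young one. Among all genes tested, 8.33% were lower in this way. Stab2, a scavenger receptor, was 2901, 3198 and 3021 CPM in young samples and 504, 1759 and 542 CPM at 127, 131 and 136 weeks. Clec4g, the most abundant of these markers in the young samples, was 3669 to 4252 CPM in young and 565 to 2367 CPM in aged samples.

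Levels between genes were compared by the deposited FPKM, which is divided by transcript length. Fos had the highest mean, 2476 ± 391 FPKM in young and 2590 ± 346 in aged samples (SD, n = 3 here and for the following levels), and ranked between 6th and 23rd of all genes in the 6 libraries. Jun had 1140 ± 327 and 1352 ± 235 FPKM, Egr1 1111 ± 79.2 and 1631 ± 270, and Junb 894 ± 74.3 and 1280 ± 282, in young and aged samples respectively. Within each age the ranges of Jun and Egr1 overlapped, as did those of Jun and Junb, so that the place of Jun is not fixed. Egr1 lay above Junb in each of the 6 libraries. Atf3 was lower, at 346 ± 173 and 862 ± 334 FPKM, followed by Nr4a1 at 104 ± 14.2 and 210.0 ± 109 and by Fosb at 56.5 ± 3.87 and 102 ± 34.9. Nr4a2 had 6.50 ± 0.894 FPKM in young and 16.9 ± 7.45 in aged samples, and Nr4a3 had 1.18 ± 0.308 and 4.59 ± 3.15. Egr3 was lowest, with 0.542 ± 0.0947 and 1.75 ± 0.657 FPKM. It ranked between 11983rd and 12212th in the young and between 9922nd and 10939th in the aged libraries. Summed over the 10 genes, 1.21%, 1.32% and 1.65% of all counts in the young libraries and 2.02%, 1.55% and 2.19% at 127, 131 and 136 weeks came from them, and the groups overlapped in that young replicate 3 lay above the 131-week sample.

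In the comparison of aged with young ECs, 8 of the 10 genes were higher in every aged sample than in any young one, 2 (Fos and Jun) overlapped, and none was lower. Among all 14612 genes tested, 9.62% were higher without overlap and 8.33% were lower without overlap. All 10 genes had a log2 fold change above 0 in edgeR, next to 51.1% of all genes tested, and 5 had one above 1, next to 11% of all. The median log2 fold change of the 10 genes was 0.94, against 0.01 over all genes tested. In edgeR no gene of the whole table passed an adjusted p of 0.05 (0 called genes, or 0% in either direction), so none of the 10 did. At an unadjusted p below 0.05 in edgeR, 8 of the 10 genes were higher, next to 8.32% of all genes tested, and 5 of these 8 (Atf3, Egr3 and the 3 NR4A genes) also had a log2 fold change above 1, next to 5.43% of all. None of the 10 was lower at these thresholds, next to 4.32% and 1.19% of all. With DESeq2 on the same counts, 4 genes (Atf3, Egr3, Nr4a2 and Nr4a3) passed an adjusted p of 0.05 with a log2 fold change above 1, next to 2.77% of 14262 genes, and none was lower, next to 0.54%. For 9 of the 10 genes (all but Fos) the top value belonged to the 136-week sample, as it did for 25.7% of all genes tested. Without that sample the median log2 fold change of the 10 genes was 0.53, and 2 of them (Egr3 and Nr4a3) remained past the unadjusted p and fold thresholds, next to 2.75% of the genes tested in that fit. Of the 8 genes past the unadjusted p alone, Junb, Egr1 and Nr4a1 did not pass it without that sample (edgeR unadjusted p = 0.111, 0.0605 and 0.0535).

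**Figure D1:**
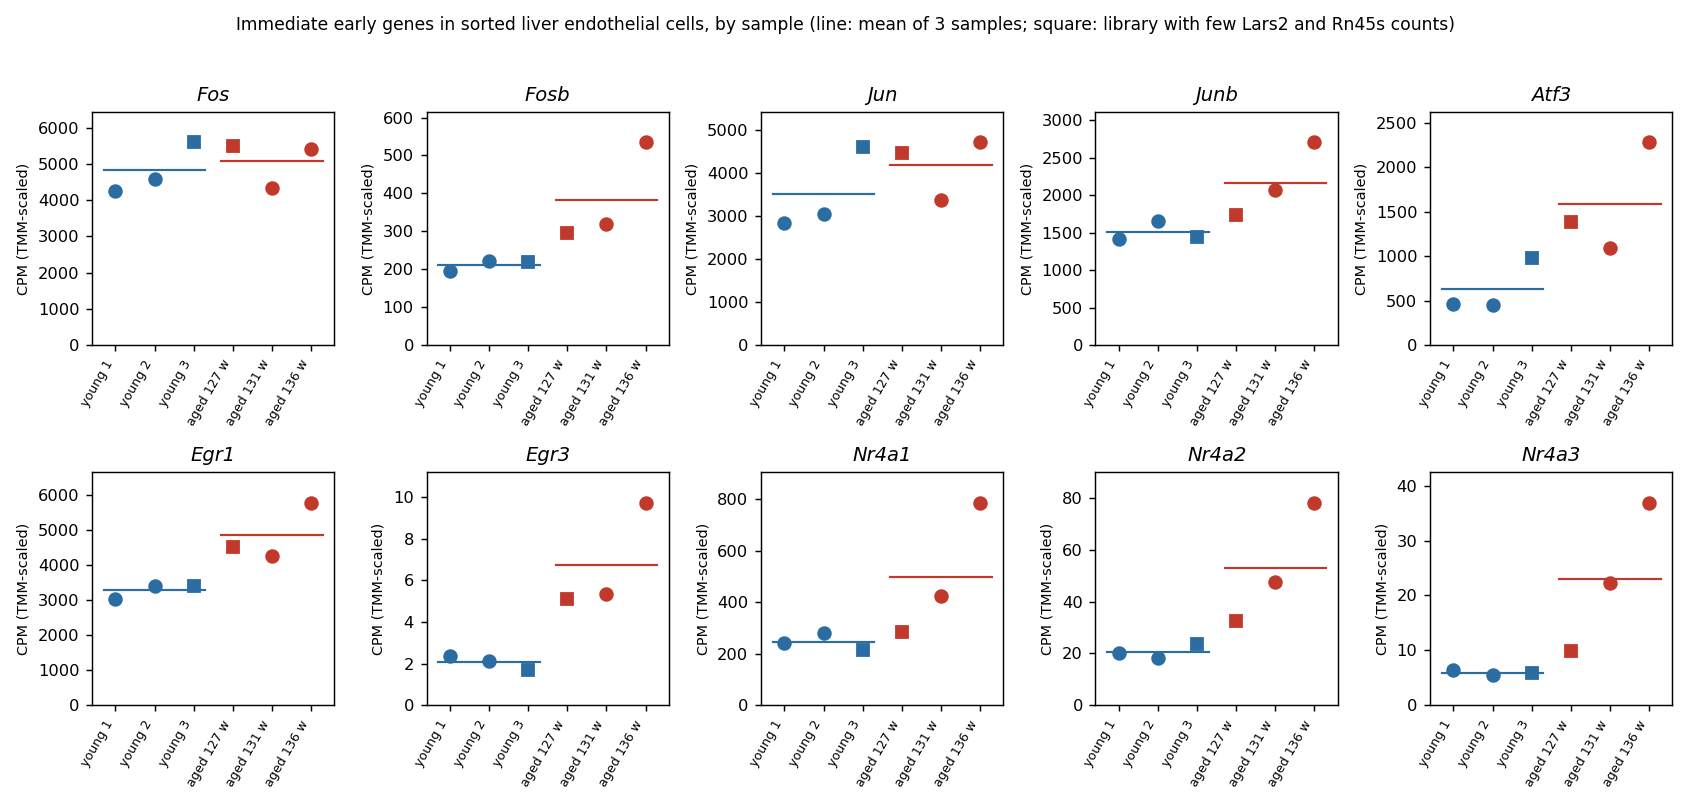
TMM-scaled CPM (y axis, linear from 0) of each of the 10 genes in the 3 young (blue) and 3 aged (red) samples, with a line at the mean of each group and squares for young replicate 3 and the 127-week sample, which have few Lars2 and Rn45s counts. Fos and Jun overlap between the ages, the other 8 genes do not, and the 136-week sample is the highest for every gene but Fos.

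In the FOS family, the ages overlapped for Fos and not for Fosb. Fos (chr12:86814840-86818223, plus strand; mm9, as for the other gene positions), the partner of JUN proteins in AP-1, was 4261, 4594 and 5591 CPM in the young samples and 5487, 4321 and 5400 CPM at 127, 131 and 136 weeks. The highest value was that of young replicate 3, and the ages overlapped. The log2 fold change was 0.07 (SE 0.22, edgeR adjusted p = 0.936). Fosb (chr7:19888070-19895394, minus strand), a relative whose protein also pairs with JUN proteins, was 195, 221 and 218 CPM in young samples and 296, 318 and 535 CPM at 127, 131 and 136 weeks, with no overlap and a log2 fold change of 0.86 (SE 0.25). This did not pass in edgeR (unadjusted p = 0.00935, adjusted p = 0.263) and had an adjusted p of 0.0428 in DESeq2, below a 2-fold change. The FPKM of Fosb was 2.40%, 2.51% and 2.01% of that of Fos in the young samples and 2.79%, 3.85% and 5.18% at 127, 131 and 136 weeks, so this ratio within a library did not overlap between the ages either.

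In the JUN family, the ages overlapped for Jun and not for Junb, and the difference between these genes was not tested. Jun (chr4:94715725-94718913, minus strand), the founding JUN protein of AP-1, was 2848, 3054 and 4602 CPM in young samples and 4471, 3361 and 4710 CPM at 127, 131 and 136 weeks. As for Fos, young replicate 3 was high, the 131-week sample was low, and the ages overlapped (log2 fold change 0.26, SE 0.26, edgeR adjusted p = 0.752). An antisense transcript, BC042782, overlaps Jun in the annotation and is no row of the count table, and the library kit does not mark strand, so that reads from both cannot be told apart. Junb (chr8:87500811-87502617, minus strand), which competes with JUN for FOS partners, was 1412, 1655 and 1442 CPM in young samples and 1734, 2062 and 2702 CPM at 127, 131 and 136 weeks. All aged values lay above the young ones, with a log2 fold change of 0.53 (SE 0.22, edgeR unadjusted p = 0.0441, adjusted p = 0.381).

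Atf3 (chr1:192994175-193007219, minus strand), a stress-induced factor of the ATF/CREB family that also pairs with JUN, was 457, 449 and 981 CPM in young samples and 1378, 1088 and 2278 CPM at 127, 131 and 136 weeks. Young replicate 3 was again the highest of the young samples but stayed below every aged one. The log2 fold change was 1.33 (SE 0.40, edgeR unadjusted p = 0.0123, adjusted p = 0.288, DESeq2 adjusted p = 0.0238). The FPKM of Atf3 was 27.0%, 24.8% and 36.0% of that of Jun in young samples and 52.1%, 54.5% and 81.5% at 127, 131 and 136 weeks, with no overlap. Of the other ratios in these families, Junb to Jun was 57.5% to 99.1% in young and 71.2% to 112% in aged samples, and Jun to Fos was 42.1% to 52.0% in young and 49.3% to 55.3% in aged samples, and both overlapped.

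Egr1 (chr18:35020861-35024638, plus strand), induced by growth factors and by shear stress in ECs, was 3041, 3411 and 3397 CPM in young samples and 4507, 4253 and 5788 CPM at 127, 131 and 136 weeks, without overlap. The log2 fold change was 0.56 (SE 0.21, edgeR unadjusted p = 0.0296, adjusted p = 0.350, DESeq2 adjusted p = 0.0598). The antisense gene Gm17507 overlaps Egr1 in the same way. Egr3 (chr14:70477252-70479964, plus strand), a relative with the same DNA-binding fingers that is induced by VEGF in ECs, was far less abundant, at 2.38, 2.12 and 1.70 CPM in young samples and 5.12, 5.37 and 9.74 CPM at 127, 131 and 136 weeks. These values rested on 64, 47 and 54 counts in the young and 149, 138 and 240 counts in the aged libraries, all well above the limit of 3 counts. The log2 fold change of Egr3 was 1.70 (SE 0.36), with an unadjusted p of 0.00196 in edgeR, the smallest of the 10 genes, an edgeR adjusted p of 0.209 and a DESeq2 adjusted p of 0.00243. The FPKM of Egr3 relative to Egr1 was 0.0616%, 0.0486% and 0.0378% in young samples and 0.0877%, 0.0986% and 0.130% at 127, 131 and 136 weeks, with no overlap.

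All 3 NR4A genes were higher in the aged samples without overlap, and they had the same order of aged samples. Nr4a1 (chr15:101097277-101105223, plus strand), also called Nur77, was 242, 282 and 213 CPM in young samples and 283, 424 and 786 CPM at 127, 131 and 136 weeks, so that the 127-week sample was barely above young replicate 2 and overlapped with it under DESeq2 size factors (log2 fold change 1.02, SE 0.36, edgeR unadjusted p = 0.0235, adjusted p = 0.332). DESeq2 gave an adjusted p of 0.0979 for Nr4a1. Without the 136-week sample its log2 fold change was 0.53 (edgeR unadjusted p = 0.0535). Nr4a2 (chr2:56959241-56976414, minus strand), or Nurr1, was 20.2, 18.1 and 23.6 CPM in young samples and 32.6, 47.4 and 78.1 CPM at 127, 131 and 136 weeks. Its log2 fold change was 1.35 (SE 0.31, edgeR unadjusted p = 0.0032, adjusted p = 0.235, DESeq2 adjusted p = 0.00614). Nr4a3 (chr4:48058025-48099319, plus strand), or NOR1, was 6.36, 5.46 and 5.90 CPM in young samples and 9.90, 22.2 and 36.9 CPM at 127, 131 and 136 weeks, from 121 to 187 and 288 to 909 counts. With a log2 fold change of 1.96 (SE 0.44), it had the largest difference among the 10 genes (edgeR unadjusted p = 0.00275, adjusted p = 0.235, DESeq2 adjusted p = 0.00173). The FPKM ratios of Nr4a2 and of Nr4a3 to Nr4a1 overlapped between the ages.

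For 8 genes the two-sided exact permutation test of CPM gave 0.1, the smallest p that 3 against 3 samples allow, and it gave 0.9 for Fos and 0.3 for Jun. Within the 4 libraries rich in Lars2 and Rn45s, the log2 difference between the means of 2 aged and 2 young samples was 2.32 for Nr4a3, 1.89 for Atf3, 1.75 for Egr3, 1.71 for Nr4a2, 1.21 for Nr4a1 and 1.04 for Fosb. Within the other 2 libraries, where the 127-week sample was set against young replicate 3 with no replicate, it was 1.59 for Egr3, 0.75 for Nr4a3 and 0.41 to 0.49 for Atf3, Nr4a2, Fosb, Nr4a1 and Egr1. Junb had 0.64 and 0.27 in these comparisons, whereas Fos had 0.13 and −0.03 and Jun had 0.45 and −0.04, which differ in sign. Egr3 was the gene whose difference was closest between both kinds of library among the 5 with a log2 fold change above 1.

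**Figure D2:**
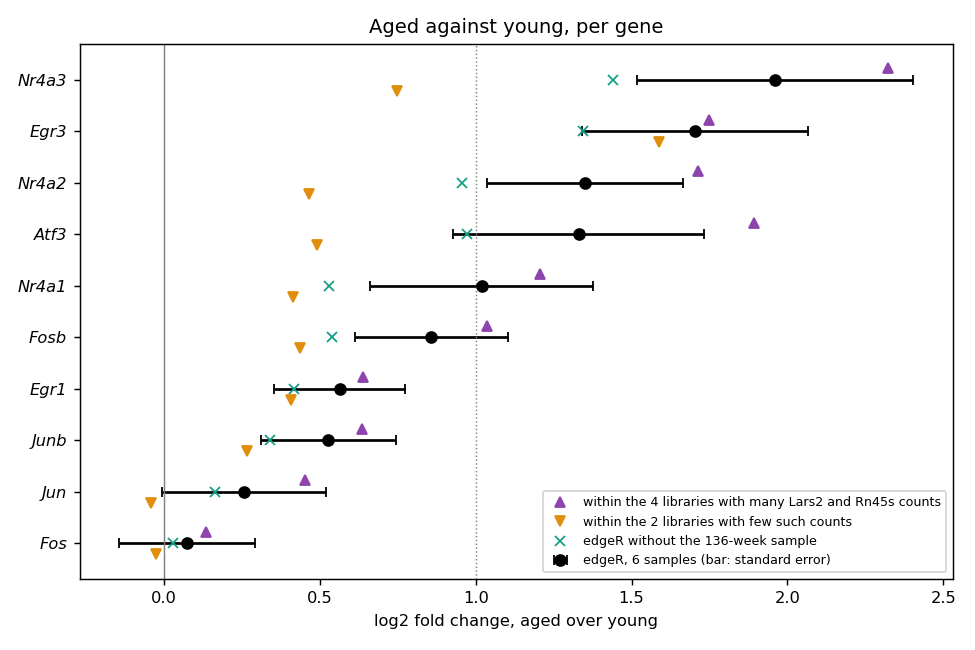
Log2 fold change of aged over young samples (x axis) for the 10 genes, as black points with standard errors from edgeR over 6 samples, crosses from edgeR without the 136-week sample, and triangles for differences within the 4 libraries with many and the 2 with few Lars2 and Rn45s counts. Nr4a3 and Egr3 lie highest, at 1.96 and 1.70, Fos and Jun lie lowest, at 0.07 and 0.26, and leaving out the 136-week sample moves every gene to a smaller value.

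The log2 fold changes were smaller for the more abundant of the 10 genes. Across the 10 genes, Spearman's rho of mean FPKM and log2 fold change was −0.90, given as a description over genes that share the same libraries. Over all genes tested the rho of mean CPM and log2 fold change was −0.22. CPM is not divided by transcript length, so these rho values rest on different measures of level and are not directly comparable. The 4 genes with the highest FPKM (Fos, Jun, Egr1 and Junb) had log2 fold changes of 0.07 to 0.56, and the 3 genes with the lowest FPKM (Nr4a2, Nr4a3 and Egr3) had 1.35 to 1.96. Atf3 departed from this order, with 1.33 at 346 FPKM in young samples.

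**Figure D3:**
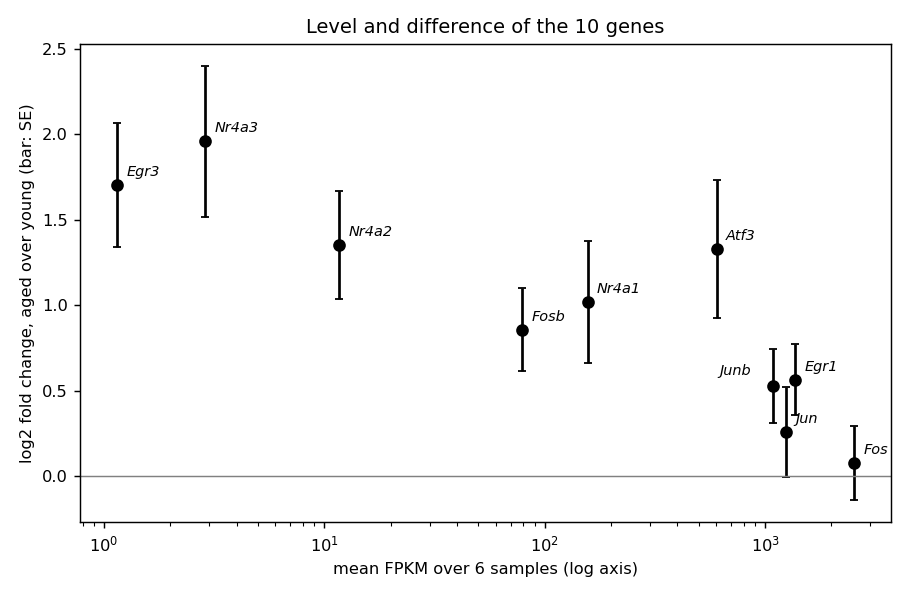
Log2 fold change with its standard error (y axis, edgeR, aged over young) against the mean FPKM over the 6 samples (x axis, log scale) for the 10 genes. The least abundant genes, Egr3, Nr4a3 and Nr4a2, have log2 fold changes of 1.70, 1.96 and 1.35, the most abundant, Fos, has 0.07, and Atf3 lies above its neighbours at 1.33.

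Pairs of the 10 genes were compared by Pearson's r of log2(CPM + 1) over the 6 samples, as a description with no test, since the points share libraries and age groups. Of 45 pairs, r was highest for Junb with Nr4a1, Nr4a2 with Nr4a3, and Fosb with Egr1 (0.98 each), and these pairs also had 0.98, 0.95 and 0.95 once the mean of each age was removed. The 136-week sample had the top value of each gene in these pairs, and its part in these r was not tested. The r of Fos was 0.95 with Jun (0.98 within ages), 0.66 with Atf3 (0.84 within ages) and 0.46 with Egr1 (0.57 within ages). It was 0.37 with its relative Fosb, and 0.10 to 0.28 with Junb, Egr3 and the 3 NR4A genes. Atf3 had an r of 0.85 with Jun and 0.92 with Egr1. Outside all lists, the genes most like the mean of the 10 were Foxa1, Adamts1, Olr1, Kdm6b and Pde4b, with r of 0.99 each over the 6 samples. They were picked for the highest r among all genes tested, so such high values follow in part from that choice. The more abundant ones were Adamts1, which encodes a secreted metalloprotease, at 705, 754 and 984 CPM in young and 1379, 1384 and 2270 CPM in aged samples, and Pde4b, a cAMP phosphodiesterase, at 139, 149 and 184 CPM in young and 290, 314 and 878 CPM in aged samples. Foxa1 was scarce, at 0.223 to 0.347 CPM in young samples, below the filter limit of 0.5 CPM, and 0.584 to 1.22 CPM in aged samples. It was tested only because aged samples passed that limit, so no size of change is read from it.

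The other AP-1 and EGR factors varied in both directions. Of 15 such genes, 12 had a log2 fold change above 0 and 3 below, with a median of 0.68 (0.52 without the 136-week sample). At an unadjusted p below 0.05 in edgeR, 8 were higher and 1 was lower, and 6 were higher in every aged sample. Among all genes tested these shares were 8.32%, 4.32% and 9.62%. Egr2, the zinc finger relative of Egr1, was 38.8, 36.9 and 45.0 CPM in young samples and 65.7, 77.3 and 85.1 CPM at 127, 131 and 136 weeks (log2 fold change 0.92, SE 0.16, edgeR adjusted p = 0.184, DESeq2 adjusted p = 3.02e-04). Batf, a partner of JUN proteins in lymphoid cells, was 6.25, 6.77 and 9.37 CPM in young and 12.3, 17.8 and 15.6 CPM in aged samples, with a log2 fold change of 1.03 (SE 0.25). Jdp2, a repressor of AP-1, had −0.67 (SE 0.25) with overlapping samples, and Atf7 had −0.19 (SE 0.17). Besides Batf, the genes past the unadjusted p and fold thresholds were Fosl1, Fosl2, Egr4 and Maff, named here because they complete that count of 5, which was 3 without the 136-week sample. Among all genes tested, 5.43% were higher past these thresholds, and 2.75% without the 136-week sample. In young samples Fosl1 was 0.447, 0.406 and 0.0946 CPM and Egr4 was 0.186, 0.0451 and 0 CPM, all below the filter limit of 0.5 CPM. Both were tested only because aged samples passed that limit, so no size of change is read from them. Both are also part of the counts of 8 and 6 above. Fosl2, a FOS family gene, was 34.0, 50.4 and 33.8 CPM in young samples and 47.6, 67.2 and 182 CPM in aged samples, which overlapped, and its log2 fold change of 1.33 was 0.54 without the 136-week sample.

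Other genes known for quick induction had a median log2 fold change of 0.83 over 34 tested genes, of 35 listed. Of these, 17 were higher at an unadjusted p below 0.05 in edgeR and none was lower, 14 of them with a log2 fold change above 1 (7 without the 136-week sample), and 16 were higher without overlap. Among all genes tested, 8.32% were higher and 4.32% lower at that p. With the fold threshold 5.43% were higher (2.75% without the 136-week sample), and 9.62% were higher without overlap. Gem, a small GTPase, was 40.1, 39.1 and 42.7 CPM in young samples and 116, 126 and 262 CPM at 127, 131 and 136 weeks (log2 fold change 2.05, SE 0.32, edgeR adjusted p = 0.180). Tnfaip3, which encodes the NF-κB inhibitor A20, was 59.9, 83.0 and 99.9 CPM in young samples and 263, 237 and 721 CPM at 127, 131 and 136 weeks (log2 fold change 2.33, SE 0.46, edgeR adjusted p = 0.193). The flow-responsive factor Klf2 had a log2 fold change of −0.46 (SE 0.35) and the clock gene Per1 of −0.55 (SE 0.41), both with overlapping samples. Without the 136-week sample the median of this list was 0.68, and the log2 fold change was 1.57 for Gem and 1.63 for Tnfaip3.

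Feedback inhibitors of the same signals were mixed, with a median log2 fold change of 0.36 over 16 genes (0.20 without the 136-week sample), with 3 higher and 0 lower at an unadjusted p below 0.05 in edgeR. Among all genes tested, 8.32% were higher and 4.32% lower at that p. Dusp2, a phosphatase of MAP kinases that is abundant in leukocytes, was 29.7, 41.6 and 17.8 CPM in young samples and 108, 64.0 and 328 CPM at 127, 131 and 136 weeks (log2 fold change 2.49, SE 0.62, edgeR adjusted p = 0.243), and its log2 fold change was 1.54 without the 136-week sample. Spry1, an inhibitor of receptor tyrosine kinase signaling, had 0.63 (SE 0.19). Dusp1, the phosphatase that is itself an immediate early gene, went the other way, with 5225, 5247 and 5181 CPM in young samples and 4025, 4028 and 3692 CPM at 127, 131 and 136 weeks. The groups did not overlap, and the log2 fold change was −0.41 (SE 0.18, edgeR adjusted p = 0.410, DESeq2 adjusted p = 0.0140). Dusp4 had −0.26 (SE 0.23), with overlapping samples.

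The SRF, ELK, MEF2 and CREB factors that act on immediate early promoters had a median log2 fold change of 0.11 over 14 genes, and 0 of them had an unadjusted p below 0.05 in edgeR. All 14 overlapped between the ages. Crtc2, a CREB coactivator, had the largest difference upwards among those named, 0.47 (SE 0.20), followed by Srf with 0.26 (SE 0.18), while Elk1 had −0.27 (SE 0.19) and Creb1 −0.11 (SE 0.14). The heat shock genes, which tissue digestion also induces, had a median of 0.13 over 13 genes, with 1 higher at an unadjusted p below 0.05 in edgeR (Dnajb4, 0.96, SE 0.33, with overlap), 0 higher without overlap and 1 lower without overlap (Dnaja1, −0.11, SE 0.15). Of all genes tested, 8.32% were higher at that p, 9.62% were higher without overlap and 8.33% were lower without overlap. Hsph1 had 0.49 (SE 0.21) and Hsp90ab1 −0.15 (SE 0.23). By sample, the median of the heat shock genes relative to the young mean, on the log2 scale, was −0.05, 0.07 and −0.04 in young samples and −0.19, 0.44 and 0.38 at 127, 131 and 136 weeks, so that the 127-week sample lay below and the other aged samples above every young one. The top value belonged to the 136-week sample for 3 of these 13 genes, next to 25.7% of all genes tested. It did so for 9 of the 10 AP-1, EGR and NR4A genes, and the difference between the lists was not tested.

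**Figure D4:**
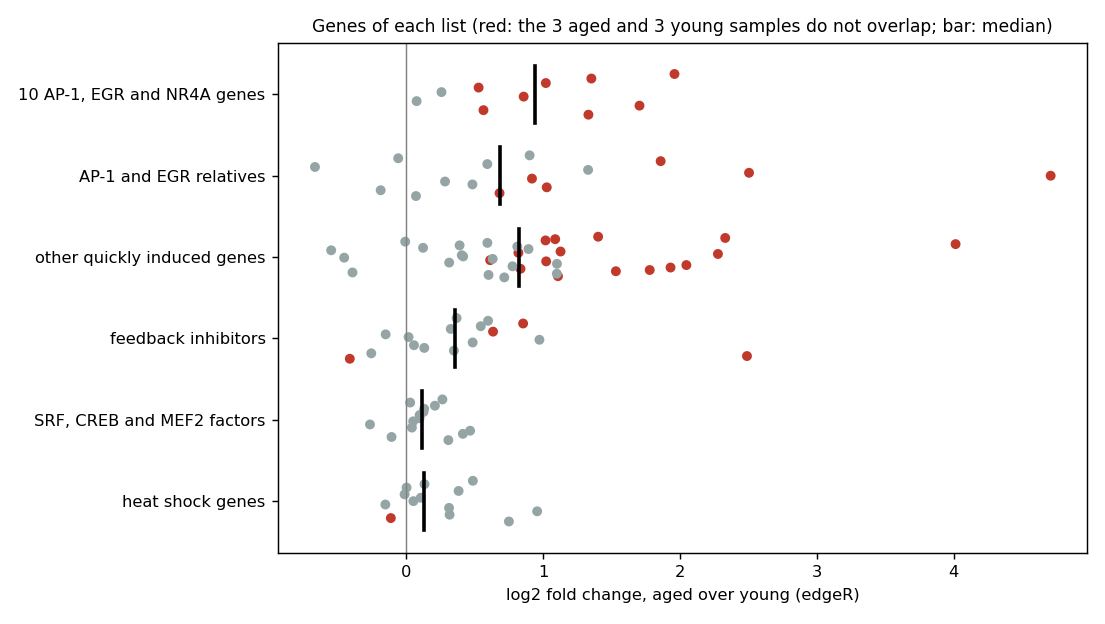
Log2 fold change in edgeR (x axis, aged over young) of each gene tested in 6 lists, in red where the 3 aged and 3 young samples do not overlap, with a bar at the median of each list. The medians are 0.94 for the 10 genes, 0.68 for their AP-1 and EGR relatives, 0.83 for other quickly induced genes, 0.36 for feedback inhibitors, 0.11 for SRF, CREB and MEF2 factors and 0.13 for heat shock genes.

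Sample by sample, the median of the 10 genes as log2((CPM + 0.5)/(young mean + 0.5)) was −0.10, −0.02 and 0.05 in the young samples and 0.47, 0.69 and 1.51 at 127, 131 and 136 weeks. Pan-leukocyte markers had 0.15, −0.28 and −0.03 in young samples and 1.01, −0.20 and 3.21 at 127, 131 and 136 weeks. The 136-week sample was thus the highest in both. In the 131-week sample the summed leukocyte markers, at 24.0 CPM, lay below the young range of 25.3 to 29.7 CPM, and the median of the 10 genes was 0.69. With the leukocyte level as a covariate in edgeR, the median log2 fold change of the 10 genes was 0.51, and 3 of them (Egr3, 1.26, Nr4a3, 1.53, and Nr4a2, 0.96) had an unadjusted p below 0.05, next to 3.89% of all genes in that fit. Sinusoidal markers had −0.10, 0.01 and 0.06 in young samples and −1.54, −0.73 and −1.68 at 127, 131 and 136 weeks. Lyve1, the one sinusoidal marker that overlapped between the ages, was 391, 537 and 670 CPM in young samples and 660, 223 and 1506 CPM at 127, 131 and 136 weeks (log2 fold change 0.58, and −0.27 without the 136-week sample). The sum of the 7 markers ranged from 14946 to 16611 CPM in young and from 5703 to 10140 CPM in aged samples. The part of this shift in the differences of the 10 genes was not tested.

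**Figure D5:**
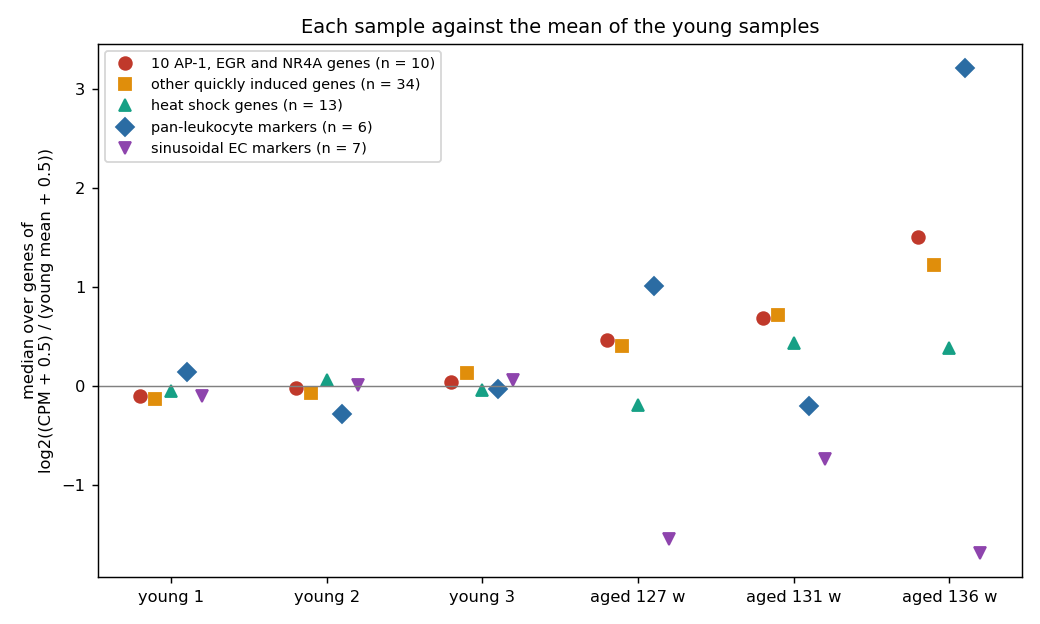
Median over the genes of 5 lists of log2((CPM + 0.5)/(young mean + 0.5)) (y axis) in each of the 6 samples (x axis). The 10 AP-1, EGR and NR4A genes have 0.47, 0.69 and 1.51 at 127, 131 and 136 weeks, the pan-leukocyte markers have 1.01, −0.20 and 3.21, and the sinusoidal markers have −1.54, −0.73 and −1.68.

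Among markers of other cells, T and NK cell genes had a median log2 fold change of 4.68 over 6 genes, B cell genes 1.98 over 4, macrophage genes 0.78 over 7 and neutrophil genes 2.70 over 4, in each case with the highest sum in the 136-week sample. Without that sample the medians were 3.05, 0.58, 0.41 and 0.49. The most abundant gene of each list, by the mean over the 6 samples, had a log2 fold change of 4.57 (Nkg7, SE 1.39), 1.39 (Cd79a, SE 0.75), 0.78 (Clec4f, SE 0.84) and 3.37 (S100a9, SE 1.18), and of 2.04 (Laptm5, SE 0.83) among the pan-leukocyte markers. Without the 136-week sample these values were 2.82, 0.27, 0.41, 1.25 and 0.59. In the young samples alone, Cd2, Cxcr2 and Cd37 had the highest means of the T and NK cell, neutrophil and pan-leukocyte lists. Their log2 fold changes were 1.44 (SE 0.75), 0.21 (SE 0.53) and −0.55 (SE 0.26), each with overlapping samples. The immune cell lists stayed at low levels: the T and NK cell genes summed to 0.978 to 1.79 CPM in young samples and to 6.43, 0.856 and 23.5 CPM at 127, 131 and 136 weeks, and the macrophage genes to 31.9 to 61.1 CPM in young samples and to 97.0, 12.6 and 155 CPM. Hepatocyte markers had a median of −0.84 over 7 genes, and Alb was 40.2 to 74.7 CPM in young and 36.5 to 45.7 CPM in aged samples. Trf, the most abundant of them, had a log2 fold change of 0.33 (SE 0.31), and the sum of the list was 218 to 289 CPM in young samples and 263, 174 and 304 CPM at 127, 131 and 136 weeks. Stellate cell markers (7 genes) had a median of −0.17, with 3 genes above 0 and 4 below. Their sum was 112 to 398 CPM in young samples and 439, 188 and 656 CPM at 127, 131 and 136 weeks. Reln, the most abundant of them, was 155, 181 and 69.9 CPM in young samples and 351, 109 and 495 CPM at these ages. Its log2 fold change was 1.23 (SE 0.56) with overlapping samples. Lrat was lower in every aged sample than in any young one (log2 fold change −2.19, SE 0.66, edgeR adjusted p = 0.286, DESeq2 adjusted p = 0.0198). Col1a1 had −1.26 (SE 1.00) with overlapping samples. Platelet and erythroid markers (4 tested) had −0.14, with Itga2b, the most abundant, at −0.39 (SE 0.20) and with Hba-a1 and Hbb-b1 at 0 counts in all samples. Cholangiocyte markers had 0.76 over 4 genes, with Spp1, a secreted phosphoprotein, at 77.4 to 96.2 CPM in young and 161 to 206 CPM in aged samples. The general endothelial markers had −0.17 over 8 genes, and Kdr, the most abundant of them and a VEGF receptor, was 3330 to 3680 CPM in young and 1669 to 3008 CPM in aged samples, without overlap (log2 fold change −0.65, SE 0.25). The part of these cells in the differences of the 10 genes was not tested beyond the leukocyte covariate and the comparison without the 136-week sample.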

How the data were processed

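RNA-seq libraries (TruSeq Sample Prep v2, 75-base single-end reads) of sorted liver ECs were analysed. Per the submitters' processing notes, CASAVA 1.8.2, TopHat2 2.1.0 and Cuffnorm 2.2.1 were used with mm9. For every gene symbol the authors deposited raw read counts, whose counting program and annotation are not given in the sources used here, and FPKM values, which the authors determined with Cuffnorm. Counts were scaled by TMM and tested in edgeR 4.0.16 (R 4.3.3) by the quasi-likelihood F test, for genes with at least 0.5 CPM in at least 1 sample, with Benjamini-Hochberg adjustment over all 14612 genes. Genes were called where the adjusted p was under 0.05 and the fold change over 2. Standard errors are the log2 fold change over the root of F. The script was tested on simulated data. DESeq2 1.42.0 and limma 3.58.1, other scalings and filters, a leukocyte covariate (mean log2 level of the pan-leukocyte markers), a term for the library kind and leaving out each sample were tried as alternatives. Replicates differed beyond sampling noise (smallest chi-square per degree of freedom 21.3). Gene positions were read from GENCODE on mm9 and promoters from RefSeq, with motifs searched on both strands.

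The 10 genes and all lists were chosen with earlier results of these data known. Named were all 10 genes, the 2 genes with the smallest unadjusted p in each direction of each pathway list, the most abundant and the defining markers, and the 5 genes outside all lists most like the mean of the 10 over the 6 samples. Fosl1, Fosl2, Egr4, Maff, Cd2, Cxcr2, Cd37, Lrat and Col1a1 were named after their values were seen.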

Additional observations from a re-analysis of the deposited data

How the results depend on the processing

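In edgeR, 0 genes of the whole table were called higher and 0 lower. The numbers called higher and lower were 395 and 77 with DESeq2, 6 and 10 with the leukocyte covariate, 13 and 2 with voom quality weights, 3 and 1 without a filter on low counts, 1 and 1 with a term for the library kind, 1 and 1 in limma on log2(FPKM + 0.1), and 1 higher in limma on log2(FPKM + 1) with no filter. Leaving out each sample gave 0 to 1 higher and 0 lower. Of the 10 genes, 4 passed the adjusted p together with the fold threshold in DESeq2 (Atf3, 1.33, Egr3, 1.70, Nr4a2, 1.35, and Nr4a3, 1.96) and none did under any other setting, where the lowest adjusted p was 0.0902. The count past the unadjusted p and fold thresholds, 5 in edgeR, was 2 with the leukocyte covariate, 3 in limma on log2(FPKM + 1), 2 in the same without a filter, and 2 to 6 when each sample was left out, with 2 without the 136-week sample (aged replicate 3). The log2 fold change of Fos was −0.042 with the leukocyte covariate and −0.0055 without young replicate 1 (−0.0055 to 0.20 when each sample was left out), and the cause was not tested. The other 9 genes kept their sign in all 22 settings. Restricting the fit to the 4 libraries of one kind was chosen after seeing the data. The count of the 10 genes without overlap, 8, was 7 with DESeq2 size factors (Nr4a1 overlapped) and 9 within the 4 libraries (Fos alone overlapped), and without young replicate 3 it was 8 with Nr4a1 overlapping in place of Jun. It was 8 in the other scalings, in FPKM and with each other sample left out. Filters, covariates and the choice of count test do not enter this count. No paired analysis was possible because the labels number the young samples only. For Egr3, the least abundant gene, values rested on 47 to 240 counts, and the part of this in its SE of 0.36 was not tested.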
